A study of Mus musculus with 7 samples.

Results

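Myelin and mature oligodendrocyte genes were examined in forebrain RNA of Lhx6 mutant mice. The set held 32 named genes of the 47729 in the count table, found there by their symbols. It was chosen with earlier results of these data known. Its counts beside those of all genes are therefore not those of a list picked blind to the data. Oligodendrocytes wrap the axons of the central nervous system in myelin, a stack of compacted membrane made of lipid and a small number of very abundant proteins. In the mouse forebrain they mature from progenitors during the first weeks after birth, and the transcripts of myelin proteins rise steeply over that period. Galactolipids made by dedicated enzymes, adhesion proteins that face the axon, claudin strands, connexins that couple glial cells and transcription factors such as Myrf, which switches on myelin genes, all belong to the mature cell.

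The control group was Lhx6+/- mice (4 libraries) and the mutant group Lhx6-/- mice (3 libraries), all at postnatal day 15 and of strain F1(C57BL/6 X 129Sv). Both carried the Lhx6tm2Vpa allele, in 1 copy in controls and in both copies in mutants, so no group had only wild-type alleles. Lhx6 encodes a transcription factor of interneurons born in the medial ganglionic eminence, and its loss was not restricted to a cell type or an age. Each library pooled the forebrains of 2 animals, so a p-value here measured the spread between pools. RNA integrity numbers ran from 9 to 10 in control pools and from 9.8 to 10 in mutant pools. The values were expected counts per gene, that is, reads shared out among the genes they match. In bulk RNA, fewer oligodendrocytes and less RNA per oligodendrocyte cannot be told apart.

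Libraries are named here by the number in their column: 2, 3, 10 and 11 were control, and 5, 12 and 13 were mutant. They held 32556304 to 38069151 counts each, and a count of 0 allowed up to 3 counts, or 0.0788 to 0.0921 CPM (counts scaled to the library total), for counting error only. Lhx6 stood at 476 to 615 normalized counts in controls and at 70.1 to 76.6 in mutants (log2 fold change -2.88 ± 0.135 SE, edgeR adjusted p = 5.99e-05). The largest axis of a principal component analysis, with 39.6% of the variance, separated libraries 2, 3 and 5 from libraries 10 to 13 and not the genotypes. These runs of library numbers are not named as a batch in the labels, and each holds both genotypes. The myelin genes also differed between the runs. Some calls with the run as a covariate stand beside the results by role, and values within the runs come after those results.

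The promoters of 3 members are shown, and they follow the test results given below, not the level. Mag and Cnp were lower in mutants at an adjusted p of 0.05 or less. Mobp had the smallest p of the members that missed this threshold. Cldn11, with a higher level per length than Mobp and Mag, is not shown. Each of the 3 holds letters that a factor of the lineage is known to bind. Each runs 5′ to 3′ on the strand of its gene over the 250 bases before the RefSeq transcription start (GRCm38.p6), and capitals mark the matches. Both strands were searched for the letters of SOX factors, the family of Sox8 and Sox10. These were ACAAAG, which reads CTTTGT when a promoter carries it on the opposite strand, and the variant ACAATG. The letters of MYRF were CTGGCAC, with the variant CTGGTAC. Mag lies at chr7:30914864-30915113 on the minus strand, Mobp at chr9:120149492-120149741 on the plus strand and Cnp at chr11:100574689-100574938 on the plus strand.
Mag: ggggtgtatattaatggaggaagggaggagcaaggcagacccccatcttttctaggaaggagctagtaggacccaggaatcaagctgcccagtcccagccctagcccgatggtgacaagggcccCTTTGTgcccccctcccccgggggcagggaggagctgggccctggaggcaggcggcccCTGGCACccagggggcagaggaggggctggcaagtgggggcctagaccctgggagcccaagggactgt
Mobp: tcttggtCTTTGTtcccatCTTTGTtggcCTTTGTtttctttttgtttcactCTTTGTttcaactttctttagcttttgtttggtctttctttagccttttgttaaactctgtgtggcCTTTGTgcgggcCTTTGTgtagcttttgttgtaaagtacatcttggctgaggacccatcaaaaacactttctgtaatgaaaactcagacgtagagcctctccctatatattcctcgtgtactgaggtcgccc
Cnp: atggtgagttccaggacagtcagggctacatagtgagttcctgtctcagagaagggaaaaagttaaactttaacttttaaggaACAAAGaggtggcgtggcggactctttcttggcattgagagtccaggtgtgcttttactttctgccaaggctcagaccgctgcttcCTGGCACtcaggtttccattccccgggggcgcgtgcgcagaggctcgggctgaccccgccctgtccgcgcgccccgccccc

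The Mag and Cnp promoters each held 1 SOX match and 1 MYRF match, and the Mobp promoter held 6 SOX matches and no MYRF match, with no overlap among the matches. RefSeq windows were matched for 24 of the 32 members. A SOX match was found in 10 of the 24 (41.7%), against 25.4% of all 27025 promoters. A MYRF match was found in 5 of the 24 (20.8%), against 5.85% of all promoters. In the 100 bases nearest the start, the SOX share was 8.33% in members and 10.4% in all promoters, and the MYRF share was 12.5% and 2.26%. These shares are descriptions of letters, were not tested and do not show that a factor bound there.

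Transcripts of myelin genes were mostly lower in mutants. Of the 32 members, all of which passed the filter on low counts, 28 had a negative log2 fold change and 4 a positive value, against 52.2% negative among all 19684 genes tested. The test called 4 members lower (Mbp, Mag, Cnp and Adamts4) and 0 higher at an adjusted p of 0.05 or less. Over all genes tested, 1.87% were called lower and 2.97% higher. Without mutant library 13 the count of members called fell to 0, without mutant library 5 to 2 (Mbp and Adamts4) and without mutant library 12 to 3 (Mbp, Mag and Cnp). At an unadjusted p of 0.05 or less, 13 members were lower and 0 higher, as were 8.32% and 9.92% of all genes tested. Every mutant library was below every control library for 11 members, and for 9% of all genes tested. DESeq2 called 10 members lower and 0 higher, where 3.51% of all genes were called lower. The members' median log2 fold change was -0.37, and that of all genes tested was -0.01. Without mutant library 5 the members' median was -0.19.

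**Figure D1:**
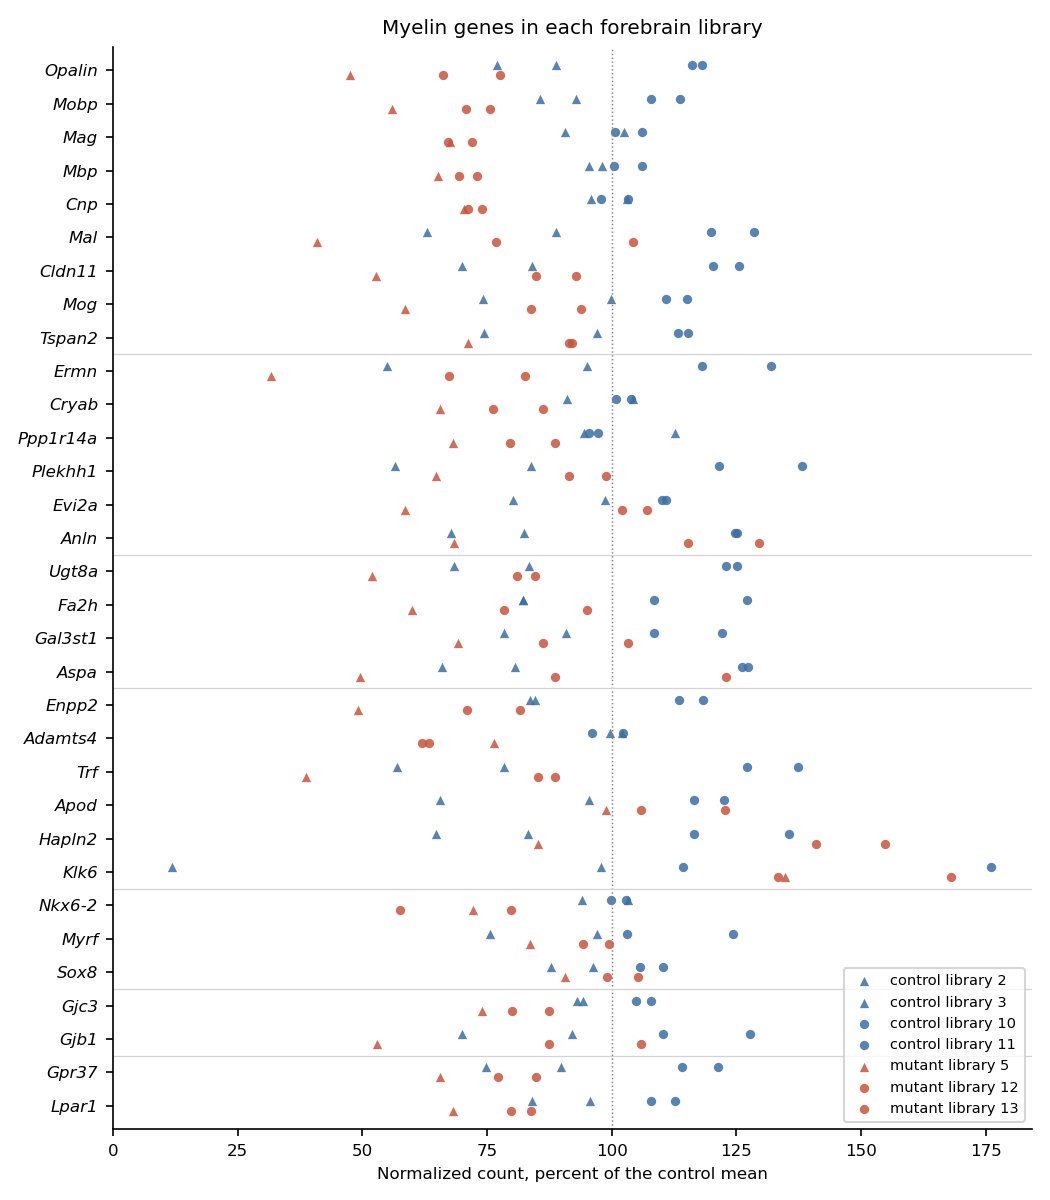
Normalized count of each of the 32 myelin genes in each library, as a percent of the mean of the control libraries (horizontal axis); each point is 1 library, triangles are libraries 2, 3 and 5, circles are libraries 10 to 13, and the genes are ordered by role. The mutant points of Mbp, Mag, Cnp and Adamts4 all lie to the left of the control points, whereas those of Sox8, Apod and Anln overlap them.

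Among the proteins that build and compact the sheath, all 9 structural and membrane members had a negative value, 3 of them were called lower, and their median log2 fold change was -0.48. Mbp, myelin basic protein, which holds the cytoplasmic faces of the membrane together, was the most abundant member per length. Its normalized counts were 116528, 119900, 122681 and 129562 in controls 2, 3, 10 and 11, against 79605, 89231 and 84889 in mutants 5, 12 and 13. Every mutant library was below every control library. Mbp fell by 0.53 on the log2 scale (SE 0.0778, 95% interval -0.71 to -0.35, adjusted p = 0.00752), which left the mutant mean at 69.2% of the control mean.

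Mag, the myelin-associated glycoprotein that faces the axon, stood at 12009, 13573, 13316 and 14042 normalized counts in controls 2, 3, 10 and 11. In mutants 5, 12 and 13 it stood at 8945, 9520 and 8881. The genotypes did not overlap, and Mag fell by 0.54 (SE 0.0842, adjusted p = 0.01). Cnp, a phosphodiesterase that keeps cytoplasmic channels of myelin open, stood at 20846, 22433, 21273 and 22467 in controls and at 15295, 16111 and 15499 in mutants. Its libraries spread little within a genotype and did not overlap between genotypes, and Cnp fell by 0.48 (SE 0.0747, adjusted p = 0.0101).

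Mobp, the myelin-associated oligodendrocytic basic protein, missed the threshold. Its normalized counts were 26040, 28194, 32786 and 34547 in the control order 2, 3, 10 and 11, against 16987, 22955 and 21507 in the mutant order 5, 12 and 13. The genotypes did not overlap, but controls 2 and 3 were below controls 10 and 11. Its log2 fold change was -0.57 ± 0.138 (SE, adjusted p = 0.0545 in edgeR, 0.00179 in DESeq2). Opalin, a sialylated membrane protein of the mature cell, stood at 408, 470, 625 and 614 in controls and at 252, 411 and 350 in mutants. Mutant library 12 overlapped control library 2, and the log2 fold change of Opalin was -0.65 ± 0.209 (SE, adjusted p = 0.136 in edgeR, 0.0352 in DESeq2).

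The other structural members had intervals that reached across 0. Mog, the glycoprotein on the outermost lamella, had a log2 fold change of -0.34 with a 95% interval of -0.78 to 0.09. For Cldn11, the claudin of the radial strands between lamellae, it was -0.38 (-0.95 to 0.19). Mal, a proteolipid of membrane sorting, gave -0.43 (-1.18 to 0.31), and the tetraspanin Tspan2 gave -0.24 (-0.61 to 0.14). For all 4 the lowest library was mutant library 5 and the genotypes overlapped. With the run as a covariate Cldn11, Mog and Mal were called lower (adjusted p = 0.00654, 0.0387 and 0.0404), and Tspan2 was not (adjusted p = 0.0765).

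The enzymes of myelin lipid were lower in sign, and their calls depended on the run covariate. Without it 0 of the 4 members were called, and the median log2 fold change was -0.29. With it 2 were called lower, Ugt8a (adjusted p = 0.00326) and Fa2h (adjusted p = 0.014). The values that follow are without it. Ugt8a makes galactosylceramide, and its log2 fold change was -0.46 (95% interval -1.03 to 0.10). Fa2h, which hydroxylates the fatty acids of these lipids, gave -0.36 (-0.81 to 0.08), and Gal3st1, which makes sulfatide, gave -0.22 (-0.62 to 0.19). Aspa releases acetate from N-acetylaspartate, and its value was -0.20 with the widest interval of the 4 (-0.96 to 0.55).

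Among the 3 transcription factors, Nkx6-2, a homeodomain factor of oligodendrocyte maturation, had the lowest value. It stood at 328, 298, 326 and 317 normalized counts in the same order of controls, against 229, 254 and 183 in mutants. The genotypes did not overlap, and the log2 fold change was -0.52 ± 0.134 (SE, adjusted p = 0.0684 in edgeR, 0.0128 in DESeq2). Exons of the neighbouring gene Inpp5a cover 12.9% of the Nkx6-2 exons, so part of its count is uncertain. Myrf had a log2 fold change of -0.11 with an interval of -0.46 to 0.23, and Sox8, a SOX factor of the lineage, had -0.02 with an interval of -0.25 to 0.20. The upper quartile scaling turned the sign of Sox8 (0.00053), and leaving out control library 11 turned that of Myrf (0.0081).

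The connexins and receptors gave 1 DESeq2 call. Gjc3, the connexin of oligodendrocyte gap junctions known as Cx29, stood at 1668, 1687, 1930 and 1878 normalized counts in controls and at 1324, 1431 and 1567 in mutants. No mutant library reached a control library, and its log2 fold change was -0.31 ± 0.0907 (SE, adjusted p = 0.096 in edgeR, 0.0383 in DESeq2). Gjb1, the connexin Cx32, gave -0.29 (95% interval -0.89 to 0.32). The receptors were Lpar1, for lysophosphatidic acid, at -0.37 (-0.65 to -0.10, adjusted p = 0.136), and the orphan receptor Gpr37, at -0.40 (-0.79 to -0.01, adjusted p = 0.264). With the run as a covariate Lpar1, Gpr37 and Gjc3 were called lower (adjusted p = 0.00648, 0.0135 and 0.00842), and Gjb1 was not (adjusted p = 0.109).

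The secreted proteins and proteases gave both signs: 3 of the 6 had a negative value and 3 a positive value. Adamts4, a protease of the extracellular matrix that mature oligodendrocytes make, stood at 1894, 1849, 1782 and 1898 normalized counts in controls 2, 3, 10 and 11. In mutants 5, 12 and 13 it stood at 1418, 1150 and 1177. The controls lay close together and above all mutants, and Adamts4 fell by 0.57 (SE 0.0902, adjusted p = 0.0102). Enpp2, or autotaxin, the enzyme that makes lysophosphatidic acid, stood at 8146, 8035, 10914 and 11381 in controls and at 4730, 7854 and 6827 in mutants. Its mutant library 12 came just under control library 3, and the log2 fold change was -0.57 ± 0.196 (SE, adjusted p = 0.16 in edgeR, 0.0389 in DESeq2).

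Trf, the iron carrier transferrin, stood at 2493, 3426, 5556 and 6003 normalized counts in controls and at 1696, 3875 and 3721 in mutants. Mutants 12 and 13 lay above controls 2 and 3, and the log2 fold change was -0.50 (95% interval -1.32 to 0.32, adjusted p = 0.549). With the run as a covariate Trf was called lower, at -0.68 (adjusted p = 0.00648). Its count is uncertain, since exons of Gm20425 cover 63.5% of the Trf exons. Hapln2, a link protein of the node of Ranvier, had a log2 fold change of 0.34 (-0.32 to 1.01), and the lipocalin Apod had 0.13 (-0.32 to 0.57). Apod changed sign when control library 2 was left out (-0.03). The protease Klk6 had the largest positive value, 0.52 (-0.85 to 1.89), on only 1.1, 9.04, 10.6 and 16.3 normalized counts in controls and 12.5, 15.5 and 12.3 in mutants, which overlapped.

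The cytoskeletal, stress and signalling members included 2 whose genotypes did not overlap. Cryab, the small heat shock protein alpha B-crystallin, stood at 1479, 1694, 1690 and 1639 normalized counts in controls and at 1067, 1402 and 1239 in mutants. The highest mutant library was below the lowest control, and the log2 fold change was -0.40 ± 0.104 (SE, adjusted p = 0.0721 in edgeR, 0.0185 in DESeq2). Sequence words of 36 bases shared with other genes made up 14.4% of Cryab. Ppp1r14a, an inhibitor of myosin phosphatase, did not overlap either, at 227 to 271 in controls and 164 to 213 in mutants (adjusted p = 0.22).

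Ermn, or ermin, an actin-binding protein of late myelination, had the largest difference of all members and 1 of the largest spreads. It stood at 478, 827, 1149 and 1029 normalized counts in controls 2, 3, 10 and 11, against 277, 720 and 586 in mutants 5, 12 and 13. The genotypes overlapped, and the log2 fold change was -0.72 ± 0.362 (SE, adjusted p = 0.346). With the run as a covariate Ermn was called lower (adjusted p = 0.0211). Plekhh1 gave -0.23 (95% interval -0.89 to 0.42) and Evi2a -0.17 (-0.66 to 0.33), and other genes cover 15.2% and 19.2% of their exons. Anln, the actin-binding protein anillin, gave 0.06 (-0.57 to 0.69), with a negative sign in 7 of the 17 alternatives.

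**Figure D2:**
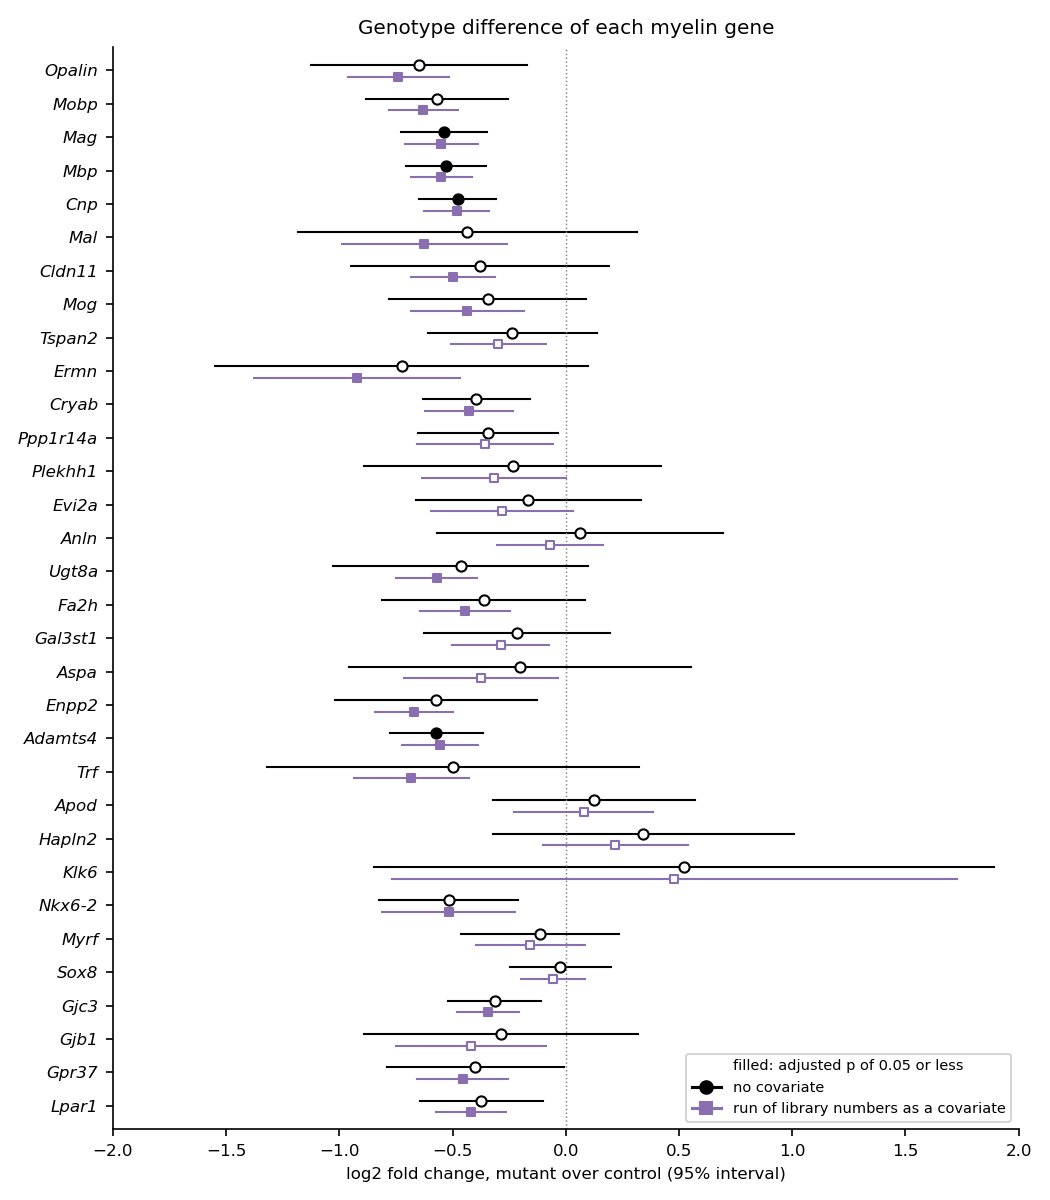
Log2 fold change of mutant over control for each myelin gene, with its 95% interval from the edgeR fit; filled points have an adjusted p of 0.05 or less. Without the run as a covariate, the intervals of Mbp, Mag, Cnp and Adamts4 lie wholly below 0 and are narrow. The wide interval of Ermn then reaches from -1.55 to 0.10, and with the run as a covariate from -1.37 to -0.47.

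The 4 called members varied little among controls, which the call itself favours, since the test weighs a difference against the spread within genotypes. On the log2 scale, control libraries 10 and 11 exceeded control libraries 2 and 3 by 0.09 for Mbp, 0.10 for Mag and 0.02 for Cnp. For Adamts4 the difference was -0.02. Some members not called were as steady, at 0.04 for Nkx6-2, 0.07 for Cryab and -0.10 for Ppp1r14a. The median of this control difference was 0.45 over the members and 0.01 over all genes tested, and 30 of the 32 members were higher in libraries 10 and 11. It was largest for Klk6, at 1.40 on few counts. It reached 0.97 for Trf, 0.89 for Plekhh1, 0.79 for Aspa, 0.77 for Hapln2 and 0.74 for Ermn. Mutant library 5 was the lowest of the 7 libraries for 22 members, and control library 11 the highest for 20.

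**Figure D3:**
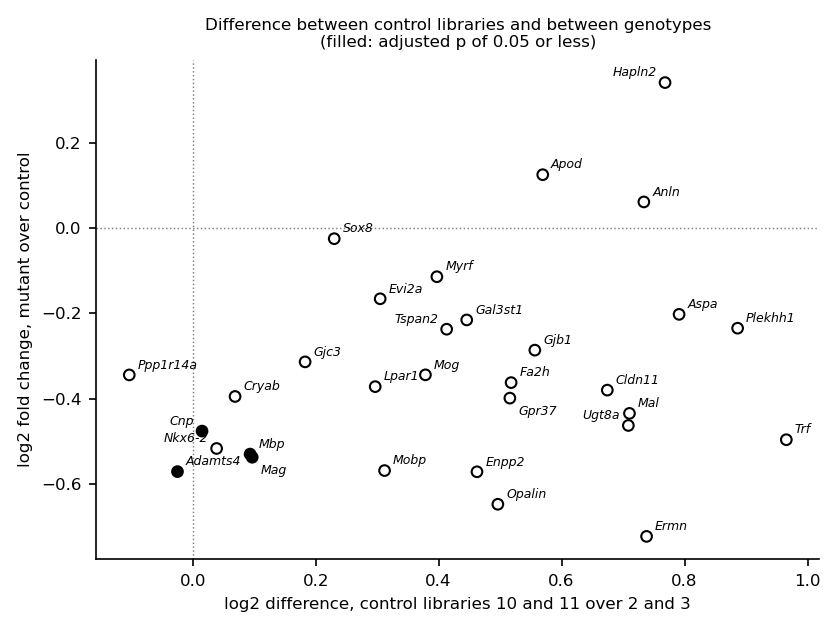
Log2 difference of control libraries 10 and 11 over control libraries 2 and 3 (horizontal axis) and log2 fold change of mutant over control (vertical axis) for 31 myelin genes; Klk6, which has few counts, is left out, and filled points have an adjusted p of 0.05 or less. The 4 filled points lie within 0.10 of 0 on the horizontal axis, as do the open points of Nkx6-2 and Cryab.

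Within each run most members were lower in mutants. Libraries 2, 3 and 5 gave a median log2 fold change of -0.51 and libraries 10 to 13 gave -0.44, and 29 of 32 were negative in both. Without overlap within either run, 25 of the 32 members were lower, as were 17.6% of all genes tested. With the run as a covariate the median was -0.43 (-0.01 for all genes tested), and 19 members were called lower and 0 higher, where 5.04% of all genes were called lower. The further calls were Mobp, Enpp2, Opalin, Ugt8a, Cldn11, Trf, Lpar1, Gjc3, Gpr37, Fa2h, Cryab, Ermn, Nkx6-2, Mog and Mal. Mobp then had a log2 fold change of -0.63 (adjusted p = 0.00102) and Ermn -0.92 (adjusted p = 0.0211). Sox8 at -0.06 (95% interval -0.20 to 0.08) and Myrf at -0.16 (-0.40 to 0.08) were not called.

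A test of whether the genotype difference itself depended on the run called 0 members. At an unadjusted p of 0.05 or less this edgeR interaction term gave 1 member, and over all genes tested it called 3, with 519 at that unadjusted p.

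**Figure D4:**
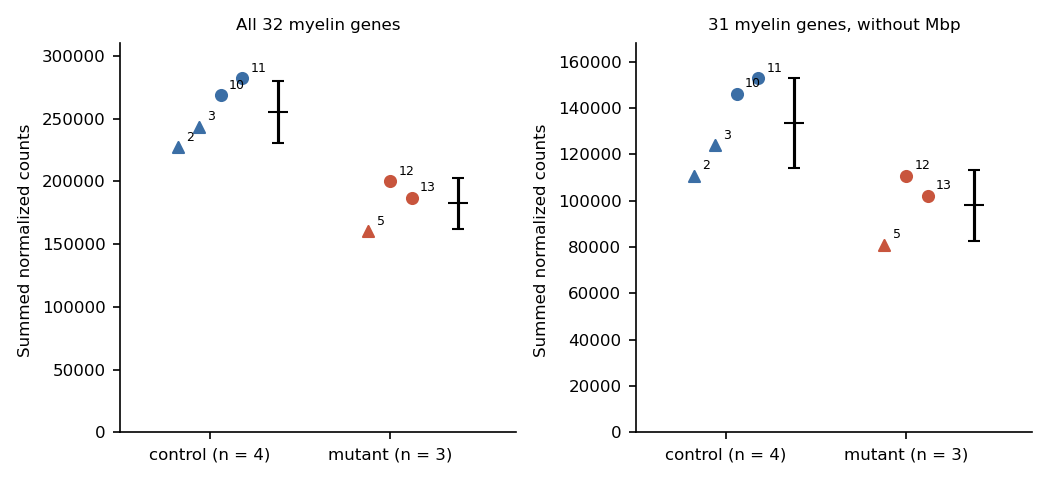
Summed normalized counts of the 32 myelin genes in each library, with all members on the left and without Mbp on the right; points are libraries (triangles for 2, 3 and 5, circles for 10 to 13), horizontal marks are genotype means and error bars are SD. With Mbp all 3 mutant libraries lie under the 4 controls, and without Mbp the highest mutant library, 12, lies level with control library 2.

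Summed over the 32 members, the normalized counts came to 227368, 243724, 268881 and 282496 in controls 2, 3, 10 and 11, against 160629, 199994 and 187101 in mutants 5, 12 and 13. The genotypes did not overlap. The means were 255617 ± 24751 (SD, n = 4) and 182575 ± 20069 (SD, n = 3), so that mutants had 71.4% of the control level. These genes took 0.637% to 0.777% of all counts in controls and 0.466% to 0.553% in mutants. Mbp made up much of the sum. Without it, controls ranged from 110840 to 152934 and mutants from 81024 to 110763, at 73.4% of control. A mean of log2 levels, which gives each member the same weight, ranged from -0.23 to 0.40 in controls and from -0.49 to 0.07 in mutants, with overlap.

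Per length of exon, the control levels ran over a wide range. Scaled by the length of joined exons and by the library total (FPKM), the level was 408 for Mbp, 168 for Cnp, 142 for Cldn11, 132 for Mobp and 91.2 for Mag, followed by 77.7 for Enpp2, 71.0 for Mal and 55.6 for Mog. The lowest levels were 1.72 for Anln, 1.38 for Hapln2, 1.22 for Aspa and 0.171 for Klk6. Of the 31 pairs of neighbours in this order, 4 did not overlap over the control libraries (Mbp above Cnp, Mobp above Mag, Evi2a above Anln, and Aspa above Klk6). The order of the rest could not be told apart within the spread. With the length of the longest transcript, no rank shifted by more than 3 places.

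Further oligodendrocyte genes gave 3 calls lower and 0 higher among 31, with 27 negative values and a median log2 fold change of -0.21. S1pr5, a sphingosine phosphate receptor of mature oligodendrocytes, fell by 0.76 (adjusted p = 0.0192). Tppp3, a tubulin-binding protein, fell by 0.63 (adjusted p = 0.0184). Olig1, Olig2 and Sox10, transcription factors present from the progenitor stage on, were not called, with log2 fold changes of -0.19, -0.16 and -0.12. The summed level of the list was 51274 to 56058 in controls and 43311 to 48128 in mutants, without overlap. With the run as a covariate 12 genes of this list were called lower and 1 higher.

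Markers of progenitors and committed precursors were centred near 0. Of 20, 10 had a negative value and 10 a positive value. Of these, 0 were called lower and 1 higher, and the median log2 fold change was 0.05. The called gene was Vcan, the matrix proteoglycan versican, at 0.56 ± 0.109 (SE, adjusted p = 0.0228). Pdgfra, the receptor that marks progenitors, had 0.12, and the proteoglycan Cspg4 had 0.42 (adjusted p = 0.117). Rras2 went the other way, at -0.47 (adjusted p = 0.0875). With the run as a covariate 1 was called lower, Rras2 (adjusted p = 0.0475), and 2 higher. The summed level was 52213 to 68191 in controls and 65703 to 70970 in mutants, with overlap.

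Enzymes of cholesterol synthesis, a lipid that myelin needs in bulk, had 17 negative values among 19 and a median of -0.29, with 1 called lower and 0 higher. Dhcr7, which catalyses the last step of a branch of the pathway, fell by 0.29 (adjusted p = 0.0411). Fdft1, squalene synthase, had -0.38 (adjusted p = 0.0602). With the run as a covariate 7 were called lower and 1 higher. Among 12 genes of the node and paranode, 0 were called lower and 1 higher, Gldn, or gliomedin, at 26.1 to 48.9 normalized counts in controls and 224 to 303 in mutants (log2 fold change 2.76, adjusted p = 0.000641).

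**Figure D5:**
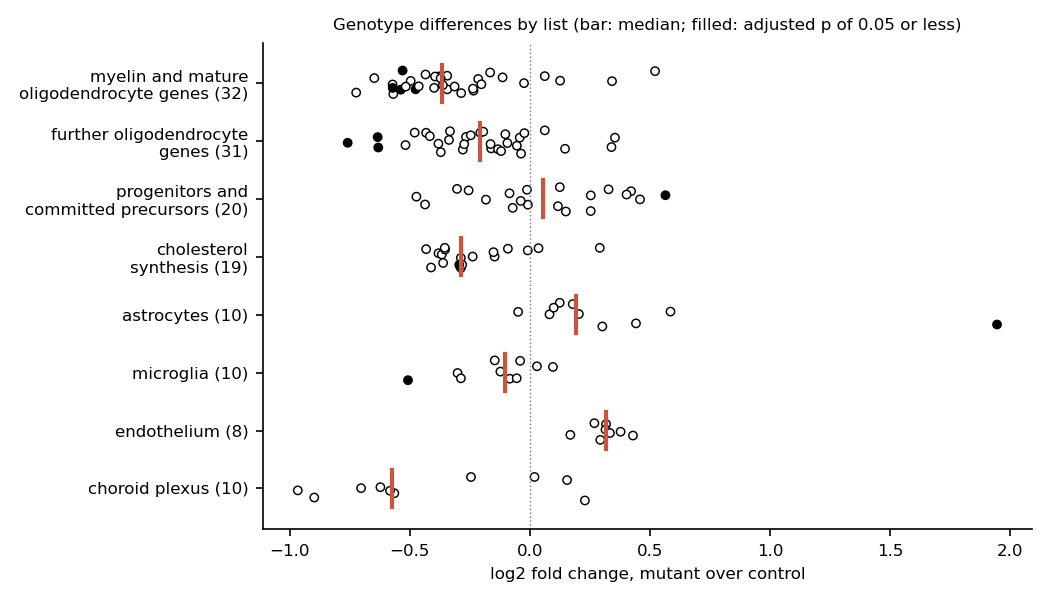
Log2 fold change of mutant over control for every tested gene of 8 of the lists, with 1 point a gene, filled at an adjusted p of 0.05 or less, and a bar at the median of the list. The median of the myelin genes is at -0.37, that of further oligodendrocyte genes at -0.21 and that of progenitor genes at 0.05.

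Marker lists of other cells were set beside these values, since forebrain was taken with no sorting of cells. Of 8 Schwann cell markers 6 were tested and 0 called, with 1 lower and 3 higher at an unadjusted p of 0.05 or less, and Pmp2, a myelin protein of that cell, was at 0 to 2.01 normalized counts. The run covariate called 1 Schwann cell marker lower and 2 higher. The defining markers of cortical excitatory neurons were present, and of 10 such genes 2 were called lower (Nrgn at -0.998 and Rorb at -0.47) and 1 higher, with summed levels of 271503 to 317992 in controls and 212422 to 244696 in mutants. Of 10 astrocyte markers 0 were called lower and 1 higher, Gfap at 1.95, with sums of 219979 to 315529 in controls and 344210 to 401078 in mutants. DESeq2 and the run covariate each called 3 astrocyte markers higher. Of 10 microglia markers Fcrls was called lower at -0.51 and 0 were called higher, with sums of 15337 to 15801 and 12942 to 15044, and the run covariate called 2 lower.

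Endothelial markers had 0 calls among 8, with 4 higher at an unadjusted p of 0.05 or less and sums of 8642 to 9812 in controls and 10886 to 11642 in mutants. All 8 had a positive value, and DESeq2 called 2 higher and the run covariate 4. Choroid plexus markers had 0 calls among 10, with 2 lower at that p, a median of -0.57 and sums of 7251 to 13531 in controls and 5595 to 11762 in mutants. Their lowest libraries were mutant library 5 and control library 3. Of 11 markers of thalamus and hypothalamus 7 were tested and 0 called, with 1 lower at that p and sums of 1837 to 2468 and 1822 to 2013. The part of these cells, or of regional sampling at dissection, in the difference of the myelin genes was not tested.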

How the data were processed

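RNA was sequenced from 7 libraries of P15 forebrain, each a pool of 2 animals. The authors trimmed single-end reads with cutadapt 1.9.1, aligned them with Bowtie2 2.2.9 to the GRCm38 transcriptome and deposited expected counts per gene from RSEM 1.2.31, without normalization. A second deposited table pairs gene identifiers with symbols. It also holds the authors' mean normalized level (a signal averaged over libraries) and their comparison (fold changes and p-values), none of which was used. Strandedness of the counting is not given in the sources used here, so overlapping genes have uncertain counts. RSEM's sharing of reads does the same for genes with near copies.

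Column names hold the genotype and the number of a library, and no column of per-sample values was unused (0). Replicates differed beyond sampling noise (chi-square per degree of freedom 9.93 to 70.4). Counts were rounded, filtered (10 counts in 3 libraries), scaled by TMM and tested with edgeR 4.0.16's quasi-likelihood F-test in R 4.3.3, adjusted by Benjamini-Hochberg over 19684 genes with a threshold of 0.05. The study's methods compared the genotypes in DESeq2 (here 1.42.0), used as an alternative. The SE of a log2 fold change is its absolute value divided by the root of F. Normalized counts were scaled to the mean effective library size. Lists were counted, with no test over a list. The alternatives were DESeq2, limma-voom (limma 3.58.1), RLE and upper quartile scaling, other filters, unrounded counts, each library left out, and the run of library numbers. The run was fitted as a covariate or with a separate genotype difference in each run. The interaction of run and genotype and the count of genes without overlap were added after seeing the data.

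The members and lists were chosen with earlier results of these data known, as was the run of library numbers. Per-library values are given for members called by edgeR or DESeq2 and for the 3 members with the largest difference among the rest. Of other lists, called genes and up to 4 examples by smallest p are named. Pdgfra, Olig1, Olig2, Sox10 and Pmp2 were named outside that rule, after their values were seen. In simulated data with the real means and library sizes, a log2 change of 0.5 was called by edgeR for 8 of 100 genes and a log2 change of 1 for 76 of 100, with 6 calls among 19054 unchanged genes. Some genes are not reported here.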

Additional observations from a re-analysis of the deposited data

Results flagged for a closer look

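In 33 groups of 4 control libraries, 1 for each member and 1 for their sum, the highest or lowest library was compared with the others by Dixon's ratio at its 95% critical value. Chance passes about 1 group in 20, and 1 group passed here. It was Ppp1r14a, the myosin phosphatase inhibitor, for which control library 3 stood at 271 normalized counts and the other controls at 227 to 234. The 3 mutant libraries stood at 164 to 213.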

How the results depend on the processing

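DESeq2 called 10 members lower, the run covariate 19, and the comparison within libraries 10 to 13 called 8. Leaving out 1 library gave 0 to 4, with 0 without mutant library 13 (adjusted p 0.0624 for Mbp and 0.0755 for Cnp), 2 without mutant library 5 (Mbp and Adamts4) and 3 without mutant library 12. Values within a run came from a fit to all 7 libraries, so the spread was shared between the runs. Libraries 2, 3 and 5 hold a single mutant pool, and no calls are given for them. Without a filter Mbp had an adjusted p of 0.0515, and with a filter on all 7 libraries Mobp was called too. No alternative called a member higher, and the members' median stayed negative, from -0.19 without mutant library 5 to -0.51. The summed level was 68.0% to 75.7% of control when 1 library was left out, and 81.2% as a mean of log2 levels.

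Of the members' values under 17 alternatives (Klk6 failed 1 filter), 16 changed sign, in 6 members, of which none was called in any alternative. Sox8 became 0.00053 with upper quartile scaling and ran from -0.081 to 0.042 with 1 library left out (positive without control library 10 or 11 or mutant library 5). Anln became -0.069 with the run covariate, -0.029 in libraries 10 to 13 and -0.134 in libraries 2, 3 and 5, and ran from -0.121 to 0.302 with 1 library left out (negative without control library 2 or 3 or mutant library 12 or 13). Apod became -0.064 in libraries 10 to 13 and ran from -0.029 (without control library 2) to 0.238. Myrf ran from -0.227 to 0.0081 (without control library 11), Aspa from -0.532 to 0.0905 and Evi2a from -0.315 to 0.074, the last 2 positive without mutant library 5. The cause was not tested.

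Over all genes, calls lower and higher were 369 and 585, against 722 and 968 with DESeq2, 992 and 1213 with the run covariate, 196 and 316 in libraries 10 to 13, 118 and 233 in libraries 2, 3 and 5, and 79 to 382 and 223 to 589 with 1 library left out. No paired analysis was possible because the columns carry library numbers and no replicate numbers. Depth limits Klk6, at 16.3 counts or fewer, and a member that missed the threshold is not shown to be unchanged.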
